A study of Mus musculus with 6 samples.

Results

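The genes described here encode the machinery that copies DNA and the enzymes that make its building blocks. They are 48 genes chosen by name for their function in replication, and the table of estimated counts held a row for each of them among its 55401 genes. The table was made from 6 libraries of poly(A)-selected RNA of BV2, a mouse microglial line immortalised with a retrovirus that carries v-raf and v-myc. In 3 libraries, named LPS, the cells had received lipopolysaccharide, the endotoxin of Gram-negative bacteria, and in the other 3, named Vehicle, they had not. The labels name no dose, no length of treatment and no composition of the vehicle. Nothing in the labels tells separate cultures from repeat preparations, so the p-values cover the spread of these 6 libraries, which may be technical. The study looked for regulators of inflammatory activation in microglia, and the comparison made here is LPS against Vehicle.

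Before S phase, the origin recognition complex, Cdc6 and Cdt1 load the Mcm2 to Mcm7 hexamer onto DNA, a step called licensing, and geminin (Gmnn) blocks Cdt1 so that no origin is licensed again. In S phase the kinase Cdc7 with its activator Dbf4, helped by Mcm10, turns the hexamer with Cdc45 and the GINS proteins into the active CMG helicase. Polymerase alpha with primase starts each strand, the clamp Pcna, loaded by replication factor C, holds polymerases delta and epsilon on DNA, and Fen1, Dna2 and Lig1 join the fragments of the lagging strand. Ribonucleotide reductase, thymidylate synthase, thymidine kinase and dUTPase supply deoxynucleotides, and most of these genes are known targets of E2F transcription factors that switch on as cells enter S phase.

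The genes of DNA replication were lower with LPS almost throughout. Of the 48 members, all 48 passed the filter on low counts, 40 fell, 0 rose and 8 were not called, by edgeR's quasi-likelihood test over 16371 genes, with p adjusted by Benjamini and Hochberg and a threshold of 0.05. Over all tested genes 10.9% fell and 12.7% rose, so 53.9% of the called genes were higher with LPS, or 42.2% when only total counts were used for scaling. Among the members 47 of 48 had a log2 fold change below 0, as did 51.3% of all tested genes. The median log2 fold change of the members was -0.74, a fall by 40.2%, against -0.02 over all tested genes. In 42 members every LPS library was below every Vehicle library, which held for 20.0% of all tested genes. At least 2-fold falls were called for 8 members and for 3.35% of all tested genes. The members were more abundant than most genes, with a median of 67.1 CPM (counts scaled by library size) against 18.0 CPM over all tested genes, and the smallest estimated count of a member in any library was 385. In the annotation 32 members share no exonic base with another gene, and 27 of these fell, with a median of -0.74. In RNA of a whole culture, fewer cells in S phase and less of each RNA per cell cannot be told apart.

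Over all tested genes the LPS libraries stood apart from each other on the second principal component (19.3% of the variance), at 62.8, -23.3 and -66.3 for LPS 1, 2 and 3, against 16.5, 11.2 and -0.90 for Vehicle 1, 2 and 3. The sum and the median of the members differed little within a group. The summed level of the 48 members was 3491, 3633 and 3633 CPM in LPS libraries 1, 2 and 3, against 6244, 5962 and 5912 CPM in Vehicle libraries 1, 2 and 3. Relative to the mean of the Vehicle libraries, the median member differed by -0.75 on the log2 scale in each LPS library and lay between -0.04 and 0.04 in the Vehicle libraries. The coefficient of variation of a member between libraries had a median of 10.1% with LPS and 5.95% with Vehicle. No LPS library was lowest for most members: LPS 1 was lowest of its group for 19, LPS 2 for 15 and LPS 3 for 14 of them.

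**Figure D1:**
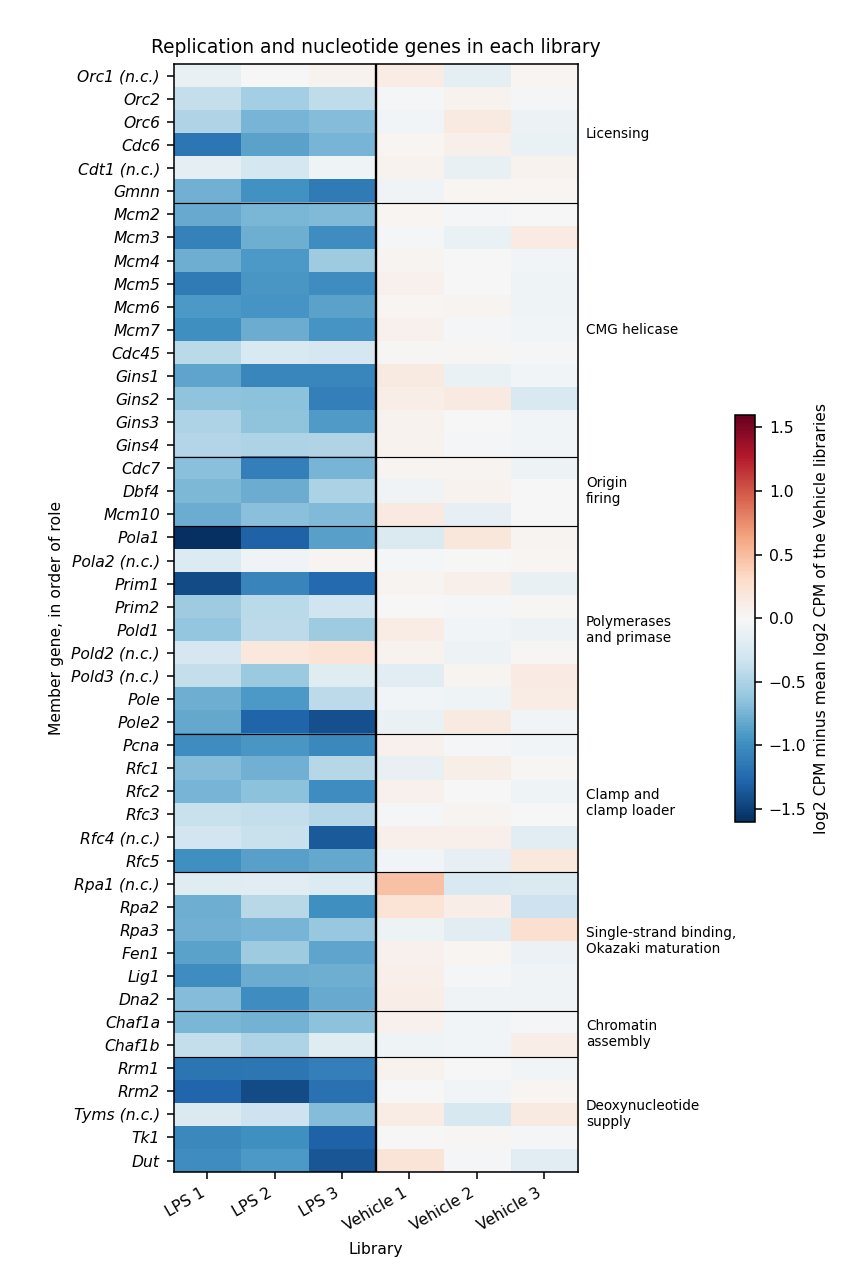
Level of each of the 48 members (rows, in order of role) in each library (columns, LPS left of Vehicle), as log2 CPM minus the mean log2 CPM of the 3 Vehicle libraries; n.c. marks the 8 members that were not called. The LPS columns are blue for most rows, with pale rows for Orc1, Cdt1, Pola2, Pold2 and Rpa1, and Rfc4 is dark in LPS 3 alone.

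Library facts that bear on these values were as follows. Library totals ran from 45969690 to 59023474 estimated counts, and low values recurred in steps of 3.81 to 3.93, so these values are not whole reads. Of 11 markers of microglia and macrophages 3 fell and 2 rose, and their summed level was 3446 to 3892 CPM with LPS and 3523 to 3820 CPM with Vehicle. Csf1r, Lyz2 and Tyrobp fell, with log2 fold changes of -1.41, -0.75 and -0.56, and Cd14 and Adgre1 rose, with 1.84 and 0.72. Without Cd14, a sum made after its value was seen, the other 10 markers summed to 2540, 2608 and 2721 CPM in LPS 1, 2 and 3, against 3222, 3250 and 3539 CPM in Vehicle 1, 2 and 3, so that sum was lower in every LPS library. Aif1 was low in both groups (2.01 CPM with LPS, 3.20 CPM with Vehicle). The summed markers of fibroblasts stayed at 0.16 to 0.78 CPM with LPS and 0.35 to 0.62 CPM with Vehicle, and those of neurons, astrocytes, oligodendrocytes and endothelial cells at 10.6 CPM or less with LPS and 9.82 CPM or less with Vehicle. Nos2, Tnf, Il1b and Il6, which LPS induces, together had 1977 to 2479 CPM in the LPS libraries and 96.1 to 108 CPM in the Vehicle libraries. All 37 mitochondrially encoded genes were listed at 0, so their share could not be used to judge RNA quality.

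**Figure D2:**
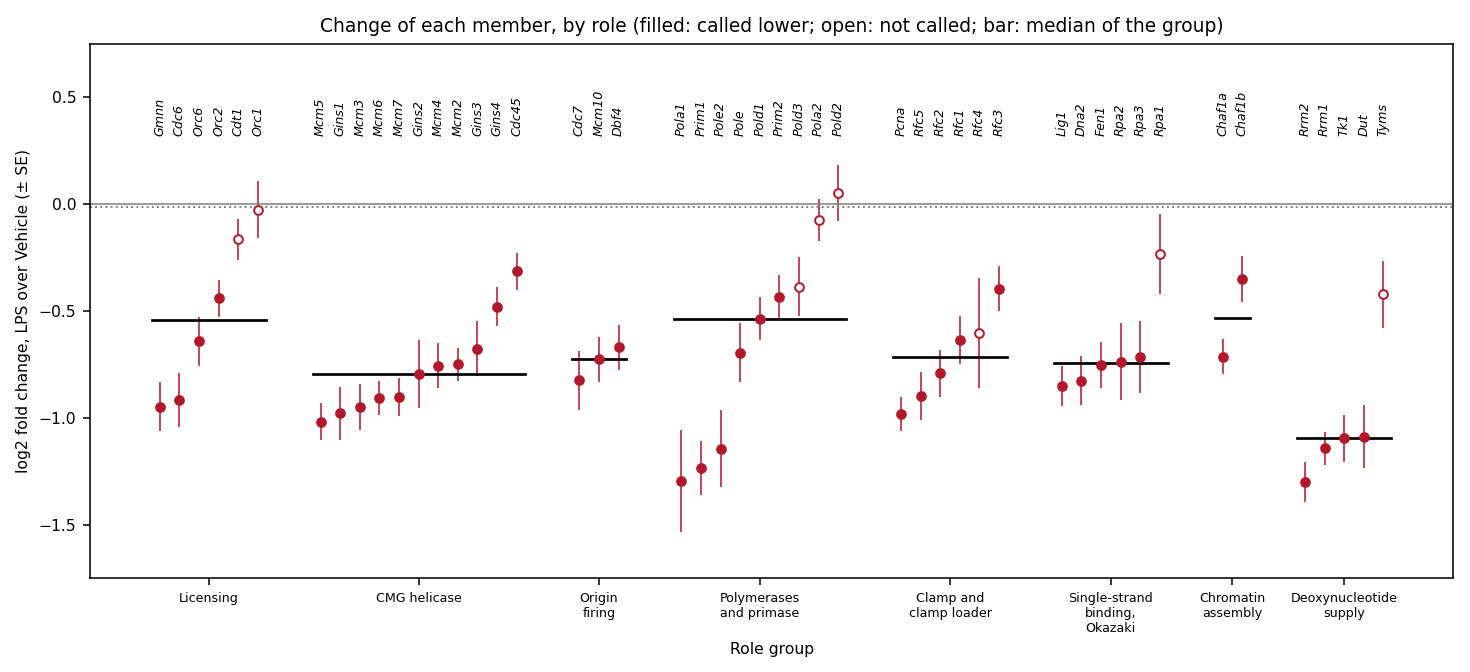
log2 fold change of each member, LPS over Vehicle, with its SE, in 8 role groups; filled points fell, open points were not called, thick bars are group medians and the dotted line is the median of all tested genes. The deoxynucleotide enzymes have the lowest median (-1.10) and the polymerases spread from -1.30 to 0.05.

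Licensing genes did not move as a block. Of 6 members 4 fell and 2 were not called, and their log2 fold changes had a median of -0.54. Gmnn (ENSMUSG00000006715), the inhibitor of licensing, had 40.7, 35.5 and 31.6 CPM in LPS 1, 2 and 3, against 66.6, 70.7 and 70.7 CPM in Vehicle 1, 2 and 3. Its log2 fold change was -0.95 ± 0.11 (SE, 3 libraries per group, edgeR adjusted p = 0.000759). Cdc6 (ENSMUSG00000017499), an ATPase needed to load the hexamer, had 34.9, 42.8 and 46.3 CPM in LPS 1, 2 and 3, against 79.2, 82.4 and 72.2 CPM in Vehicle 1, 2 and 3, a change of -0.92 ± 0.13 in log2 (edgeR adjusted p = 0.00134). Neither gene overlapped between the groups.

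Among the origin recognition genes, Orc6 (ENSMUSG00000031697) had 54.2, 45.1 and 46.7 CPM in LPS 1, 2 and 3, against 73.3, 83.8 and 70.8 CPM in Vehicle 1, 2 and 3. Orc2 (ENSMUSG00000026037) had 113, 101 and 111 CPM in LPS 1, 2 and 3, against 143, 153 and 144 CPM in Vehicle 1, 2 and 3. Both fell, with log2 fold changes of -0.64 ± 0.11 and -0.44 ± 0.09. Orc1, the largest subunit, had -0.03 ± 0.13 (edgeR adjusted p = 0.915), with 17.1, 18.5 and 19.1 CPM in LPS 1, 2 and 3, against 20.0, 16.6 and 18.9 CPM in Vehicle 1, 2 and 3. The 3 other subunits, Orc3, Orc4 and Orc5, had log2 fold changes of -0.10, 0.05 and -0.13 and were not called, so 2 of the 6 subunit genes fell.

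Cdt1 (ENSMUSG00000006585), the loader that Gmnn inhibits, was not called (log2 fold change -0.17 ± 0.10, edgeR adjusted p = 0.256). It had 102, 92.8 and 107 CPM in LPS 1, 2 and 3, against 117, 104 and 117 CPM in Vehicle 1, 2 and 3, and the groups overlapped. The ratio of Cdt1 to Gmnn in CPM was 2.5, 2.62 and 3.38 in LPS 1, 2 and 3, against 1.75, 1.47 and 1.66 in Vehicle 1, 2 and 3, with no overlap. An exact two-sided permutation test of this ratio gave p = 0.1, the smallest that 3 against 3 libraries allow, and an adjusted p = 0.125 over 5 ratios by the exact test. The ratio of Orc1 to Orc2 was 0.15, 0.18 and 0.17 in LPS 1, 2 and 3, against 0.14, 0.11 and 0.13 in Vehicle 1, 2 and 3, with the same exact p = 0.1 and adjusted p = 0.125.

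All 11 genes of the CMG helicase fell, and their median was -0.79 on the log2 scale. The Mcm2 to Mcm7 genes, whose products form a ring with 1 copy of each, moved as a block, between -0.75 and -1.02. Mcm5 (ENSMUSG00000005410) had 140, 160 and 153 CPM in LPS 1, 2 and 3, against 320, 308 and 291 CPM in Vehicle 1, 2 and 3, a change of -1.02 ± 0.09 in log2 (edgeR adjusted p = 0.000143). Mcm6 (ENSMUSG00000026355) had 216, 213 and 226 CPM in LPS 1, 2 and 3, against 418, 420 and 389 CPM in Vehicle 1, 2 and 3. Mcm3 (ENSMUSG00000041859) had 178, 219 and 190 CPM in LPS 1, 2 and 3, against 369, 352 and 415 CPM in Vehicle 1, 2 and 3. Every LPS library of each of the 6 ring genes was below every Vehicle library.

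Mcm2 (ENSMUSG00000002870), a ring subunit that Cdc7 phosphorylates, had the smallest fall of the 6, with 139, 146 and 149 CPM in LPS 1, 2 and 3, against 248.5, 238 and 243 CPM in Vehicle 1, 2 and 3, a change of -0.75 ± 0.08 in log2 (edgeR adjusted p = 0.000366). Mcm7 and Mcm4 had -0.90 ± 0.09 and -0.76 ± 0.10. Divided by the length of the longest annotated transcript, the level of the 6 ring genes ran from 34.6 to 57.1 CPM per kilobase with LPS and from 58.4 to 110 with Vehicle, so the highest was 1.65 times the lowest with LPS and 1.89 times with Vehicle. Mcm3 was the highest and Mcm4 the lowest of the ring genes per length in both groups.

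The partners of the ring fell by different amounts. Gins1 (ENSMUSG00000027454), a GINS subunit, had 23.1, 20.1 and 20.1 CPM in LPS 1, 2 and 3, against 45.8, 38.6 and 40.4 CPM in Vehicle 1, 2 and 3, a log2 fold change of -0.98 ± 0.12. Gins2, Gins3 and Gins4 had log2 fold changes of -0.79, -0.68 and -0.48. Cdc45 had the smallest fall of the helicase genes, -0.31 ± 0.09 (edgeR adjusted p = 0.0331), and its call was lost with the replicate number as a block and without any single library but LPS 3, with adjusted p up to 0.110. In the annotation 67.3% of the exonic bases of Gins2 are shared with Gse1 on the other strand, which was not called (log2 fold change 0.34, edgeR adjusted p = 0.112).

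The 3 genes that fire licensed origins fell together. Cdc7 (ENSMUSG00000029283), the kinase, had 24.8, 18.4 and 23.4 CPM in LPS 1, 2 and 3, against 40.4, 40.4 and 37.0 CPM in Vehicle 1, 2 and 3, a change of -0.83 ± 0.14 in log2 (edgeR adjusted p = 0.00337). Dbf4 (ENSMUSG00000002297), its activator, had 47.3, 45.1 and 54.8 CPM in LPS 1, 2 and 3, against 74.9, 81.4 and 77.9 CPM in Vehicle 1, 2 and 3, and a log2 fold change of -0.67 ± 0.11. Mcm10 (ENSMUSG00000026669), a scaffold that activates the helicase, had 45.4, 49.2 and 48.1 CPM in LPS 1, 2 and 3, against 86.3, 71.3 and 78.3 CPM in Vehicle 1, 2 and 3, and a log2 fold change of -0.73 ± 0.10. The ratio of Dbf4 to Cdc7 averaged 2.23 ± 0.29 with LPS and 1.99 ± 0.13 with Vehicle (SD, n = 3 each), with overlapping groups (exact permutation p = 0.3, adjusted p = 0.3 over 5 ratios).

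The polymerase genes spread widely, from a log2 fold change of -1.30 for Pola1 to 0.05 for Pold2. Of 9 members 6 fell, 0 rose and 3 were not called, and the median was -0.54. Within polymerase alpha with primase, both catalytic subunits fell, and of their partners Prim2 fell and Pola2 was not called. Pola1 (ENSMUSG00000006678), the catalytic subunit, had 16.6, 24.95 and 33.5 CPM in LPS 1, 2 and 3, against 52.0, 69.3 and 63.1 CPM in Vehicle 1, 2 and 3, a change of -1.30 ± 0.24 in log2 (edgeR adjusted p = 0.00746). Pola2, the subunit that holds it, had 62.4, 69.5 and 74.6 CPM in LPS 1, 2 and 3, against 70.9, 72.4 and 74.0 CPM in Vehicle 1, 2 and 3, a log2 fold change of -0.07 ± 0.10 that was not called (edgeR adjusted p = 0.637). The LPS libraries of Pola1 were spread out, LPS 1 lowest and LPS 3 highest, and all lay below the Vehicle libraries, whereas those of Pola2 overlapped them. The mitosis gene Mki67 had the same order of LPS libraries, with 34.2, 103 and 221 CPM in LPS 1, 2 and 3, against 301, 445 and 484 CPM in Vehicle 1, 2 and 3, and so did Cenpf, with 6.53, 29.8 and 43.4 CPM in LPS 1, 2 and 3, against 51.8, 84.5 and 83.7 CPM in Vehicle 1, 2 and 3. Neither was called (edgeR adjusted p = 0.121 for Mki67 and 0.157 for Cenpf), and the part of this difference between LPS libraries in the value of Pola1 was not tested. Both genes were picked after their values were seen, and mitosis genes did not share a single order. Bub1 had the same order, with 49.9, 58.85 and 76.4 CPM in LPS 1, 2 and 3, and Cdk1 the reverse, with 73.7, 62.75 and 51.75 CPM.

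Prim1 (ENSMUSG00000025395), the catalytic subunit of primase, had 22.5, 29.3 and 25.7 CPM in LPS 1, 2 and 3, against 62.7, 64.0 and 55.9 CPM in Vehicle 1, 2 and 3, a change of -1.24 ± 0.13 in log2 (edgeR adjusted p = 0.000346). Prim2, the large subunit of primase, had -0.43 ± 0.10, and lost its call (edgeR adjusted p = 0.0179) without any single library but LPS 3, with adjusted p up to 0.0622. The ratio of Pola1 to Pola2 was 0.27, 0.36 and 0.45 in LPS 1, 2 and 3, against 0.73, 0.96 and 0.85 in Vehicle 1, 2 and 3. The ratio of Prim1 to Prim2 was 0.63, 0.75 and 0.61 in LPS 1, 2 and 3, against 1.19, 1.23 and 1.04 in Vehicle 1, 2 and 3. Both ratios were chosen after the values were seen, and they are given without a test. The 5 tested ratios were themselves chosen with earlier results of these data known.

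Polymerase epsilon, which copies the leading strand, fell in both of its listed subunits. Pole2 (ENSMUSG00000020974), its accessory subunit, had 11.9, 8.602 and 7.90 CPM in LPS 1, 2 and 3, against 19.4, 23.1 and 20.3 CPM in Vehicle 1, 2 and 3, a log2 fold change of -1.14 ± 0.18. Pole (ENSMUSG00000007080), the catalytic subunit, had 62.5, 56.5 and 79.8 CPM in LPS 1, 2 and 3, against 104, 102 and 116 CPM in Vehicle 1, 2 and 3, a log2 fold change of -0.69 ± 0.14. The histone-fold subunits Pole3 and Pole4 fell as well, with -0.59 and -0.66, so all 4 subunit genes were lower.

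Polymerase delta, which copies the lagging strand, did not move as a unit. Pold1, the catalytic subunit, fell with a change of -0.54 ± 0.10 in log2 (edgeR adjusted p = 0.00622). Pold2, its structural partner, had 115, 155 and 161 CPM in LPS 1, 2 and 3, against 144, 131 and 141 CPM in Vehicle 1, 2 and 3, and was not called, with 0.05 ± 0.13 (edgeR adjusted p = 0.812), a value whose sign turned with total counts only (-0.04) and without LPS 2 (-0.01) or LPS 3 (-0.04). Pold3, the subunit with a Pcna-binding tail, had -0.39 ± 0.14 and was not called (edgeR adjusted p = 0.0784), although its groups did not overlap, and it passed without LPS 3 (edgeR adjusted p = 0.0284). Pold4, the small subunit and not among the 48 members, rose, with 38.8 CPM with LPS and 20.8 CPM with Vehicle (log2 fold change 0.90 ± 0.11, edgeR adjusted p = 0.000983). The 4 subunit genes of polymerase delta thus spanned 1.44 on the log2 scale, the widest range of the complexes compared. Pold4 set its upper end, and the highest of the listed members was Pold2, at 0.05. The 6 ring genes of the helicase had the narrowest range, 0.27. The other complexes lay between, from 0.50 for GINS to 1.22 for polymerase alpha with primase.

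**Figure D3:**
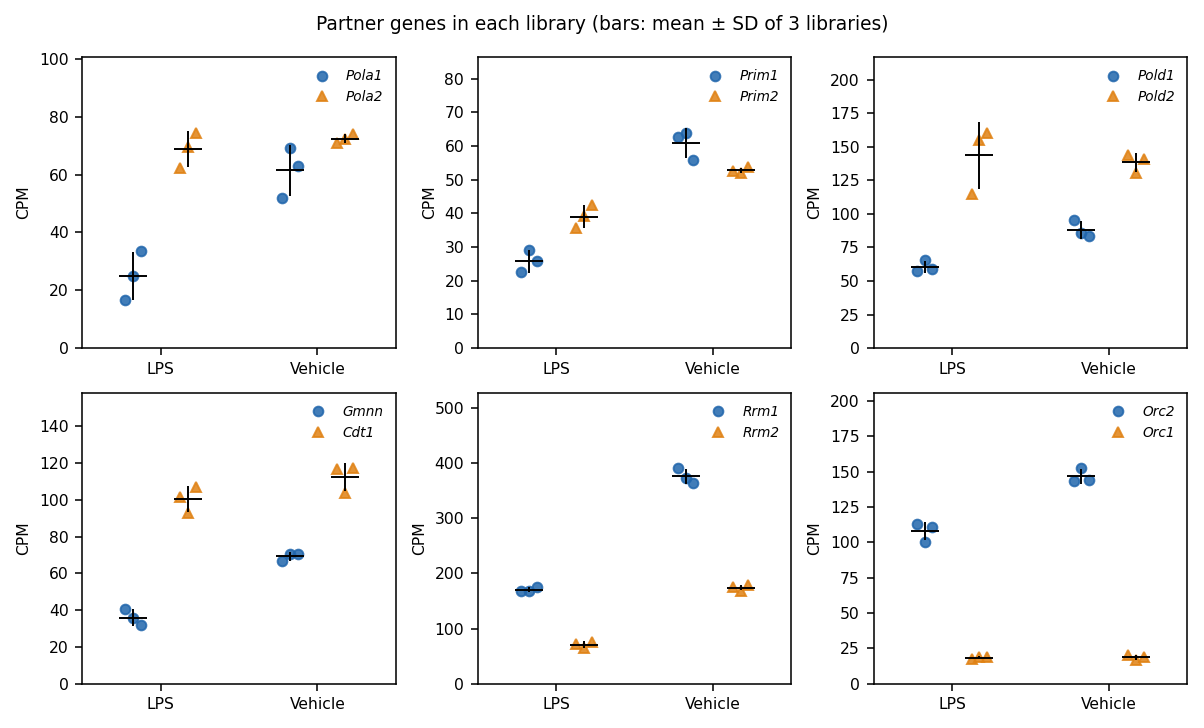
CPM of 6 pairs of partner genes in each LPS and Vehicle library, with the mean and SD of 3 libraries; each axis starts at 0. Pola1, Prim1, Pold1 and Gmnn are lower with LPS while Pola2, Pold2 and Cdt1 overlap between the groups, and Rrm1 and Rrm2 are lower together.

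Per length, the order of the members differed between the groups. Pold2 held rank 2 of 48 with LPS and rank 5 with Vehicle, at 87.2 and 84.1 CPM per kilobase. Cdt1 held rank 8 with LPS and rank 19 with Vehicle, at 37.3 and 41.8. Rrm2, in contrast, held rank 13 with LPS and rank 6 with Vehicle, at 32.2 and 79.4, and Rrm1 rank 15 and rank 8, at 31.1 and 68.7. Pola1 was the lowest of the 48 with LPS, at 4.68, and Orc1 with Vehicle, at 6.15 CPM per kilobase.

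The sliding clamp was the most abundant of these transcripts per length in both groups, at 208 CPM per kilobase with LPS and 410 with Vehicle. Pcna (ENSMUSG00000027342) had 313, 327 and 305 CPM in LPS 1, 2 and 3, against 651, 614 and 600 CPM in Vehicle 1, 2 and 3. Its log2 fold change was -0.98 ± 0.08 (edgeR adjusted p = 0.000105), a fall by 49.3%. Every LPS library was below every Vehicle library.

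Of the 5 genes of the clamp loader 4 fell. Rfc5 (ENSMUSG00000029363), a small subunit, had 41.3, 44.7 and 46.2 CPM in LPS 1, 2 and 3, against 79.5, 74.6 and 92.2 CPM in Vehicle 1, 2 and 3, a log2 fold change of -0.90 ± 0.11. Rfc2 (ENSMUSG00000023104) had 59.5, 63.0 and 49.96 CPM in LPS 1, 2 and 3, against 104, 99.5 and 94.8 CPM in Vehicle 1, 2 and 3, and -0.79 ± 0.11. Rfc1 (ENSMUSG00000029191), the large subunit, had 69.9, 66.2 and 82.7 CPM in LPS 1, 2 and 3, against 104, 121 and 115 CPM in Vehicle 1, 2 and 3, and -0.64 ± 0.11. These 3 genes did not overlap between the groups. Rfc3 had -0.40 ± 0.10 and lost its call (edgeR adjusted p = 0.0271) without any single library but LPS 3, with adjusted p up to 0.0986.

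Rfc4 was the clamp loader gene that was not called, and a single library set its spread. It had 48.5, 46.8 and 23.6 CPM in LPS 1, 2 and 3, against 63.8, 63.5 and 53.5 CPM in Vehicle 1, 2 and 3, a change of -0.60 ± 0.26 in log2 (edgeR adjusted p = 0.142). Without LPS 3 the log2 fold change was -0.34, and with the replicate number as a block the edgeR adjusted p = 0.0353. Of its exonic bases 12.7% are shared with Eif4a2 on the other strand, which was not called.

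The genes that handle single strands and join Okazaki fragments fell in 5 of 6 cases, and their median was -0.75 on the log2 scale. Lig1 (ENSMUSG00000056394), the replicative DNA ligase, had 68.1, 78.2 and 78.5 CPM in LPS 1, 2 and 3, against 143, 133 and 129 CPM in Vehicle 1, 2 and 3, a change of -0.85 ± 0.10 in log2 (edgeR adjusted p = 0.000524). Dna2 (ENSMUSG00000036875), a nuclease and helicase, had 34.3, 27.95 and 31.8 CPM in LPS 1, 2 and 3, against 59.5, 53.6 and 53.5 CPM in Vehicle 1, 2 and 3, and -0.83 ± 0.11. Fen1 (ENSMUSG00000024742), the flap endonuclease, had 66.0, 80.3 and 66.2 CPM in LPS 1, 2 and 3, against 125, 122 and 112 CPM in Vehicle 1, 2 and 3, and -0.75 ± 0.11. All 3 were separated between the groups. In the annotation 84.2% of the exonic bases of Fen1 are shared with genes on the other strand, and Tmem258 among them rose (log2 fold change 0.42, edgeR adjusted p = 0.00883).

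The subunits of replication protein A, which coats single-stranded DNA, differed in what could be called. Rpa2 (ENSMUSG00000028884) had 44.9, 56.9 and 39.0 CPM in LPS 1, 2 and 3, against 89.6, 83.2 and 61.6 CPM in Vehicle 1, 2 and 3, and fell with -0.74 ± 0.18 (edgeR adjusted p = 0.0206). Rpa3 fell with -0.72 ± 0.17 (edgeR adjusted p = 0.0162). Without LPS 1 neither was called, which left 3 members of the role group that fell. Rpa2 was also lost without Vehicle 1 or Vehicle 2 (edgeR adjusted p up to 0.0755), and Rpa3 without LPS 2 or Vehicle 3 (edgeR adjusted p up to 0.0568). Rpa1, the large subunit, had 175, 177 and 172 CPM in LPS 1, 2 and 3, against 276, 169 and 171 CPM in Vehicle 1, 2 and 3. It was not called (log2 fold change -0.23 ± 0.19, edgeR adjusted p = 0.422), and without Vehicle 1, whose value stood apart, the log2 fold change was 0.040.

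Chromatin assembly factor 1, which places histones on new DNA behind the fork, fell in both listed subunits. Chaf1a (ENSMUSG00000002835), the large subunit, had 90.8, 89.9 and 96.0 CPM in LPS 1, 2 and 3, against 159, 147 and 148 CPM in Vehicle 1, 2 and 3, a change of -0.71 ± 0.08 in log2 (edgeR adjusted p = 0.000603). Chaf1b (ENSMUSG00000022945), the middle subunit, had 64.4, 59.3 and 73.1 CPM in LPS 1, 2 and 3, against 79.8, 81.1 and 90 CPM in Vehicle 1, 2 and 3, and -0.35 ± 0.11 (edgeR adjusted p = 0.0482). The call of Chaf1b was lost without the filter on low counts, with edgeR's test as before version 4 and without any single library but LPS 3, with adjusted p up to 0.153. The ratio of Chaf1a to Chaf1b was 1.41, 1.52 and 1.31 in LPS 1, 2 and 3, against 1.99, 1.82 and 1.65 in Vehicle 1, 2 and 3 (exact permutation p = 0.1, adjusted p = 0.125 over 5 ratios). Of the exonic bases of Chaf1a 52.5% are shared with Ubxn6 on the other strand, which was not called (log2 fold change 0.07).

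Deoxynucleotide enzymes had the lowest median of the role groups, -1.10, and 4 of 5 fell, each by more than 2-fold; differences between role groups were not tested. Rrm2 (ENSMUSG00000020649), the small subunit of ribonucleotide reductase made in S phase, had 72.0, 64.3 and 75.9 CPM in LPS 1, 2 and 3, against 175, 169 and 178 CPM in Vehicle 1, 2 and 3. Its log2 fold change of -1.30 ± 0.09 (edgeR adjusted p = 5.08e-05) was close to that of Pola1, and which of them was lower depended on the setting. Rrm1 (ENSMUSG00000030978), the large subunit, had 167, 168 and 176 CPM in LPS 1, 2 and 3, against 391, 374 and 364 CPM in Vehicle 1, 2 and 3, and -1.14 ± 0.08 (edgeR adjusted p = 4.31e-05). Both subunits fell to levels far outside the Vehicle spread. The ratio of Rrm2 to Rrm1 in CPM was 0.43, 0.38 and 0.43 in LPS 1, 2 and 3, against 0.45, 0.45 and 0.49 in Vehicle 1, 2 and 3 (exact permutation p = 0.1, adjusted p = 0.125 over 5 ratios).

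Tk1 (ENSMUSG00000025574), the thymidine kinase of S phase, had 32.6, 33.7 and 27.3 CPM in LPS 1, 2 and 3, against 66.9, 67.7 and 65.7 CPM in Vehicle 1, 2 and 3, a change of -1.10 ± 0.11 in log2 (edgeR adjusted p = 0.000322). Dut (ENSMUSG00000027203), which removes dUTP, had 53.5, 56.5 and 41.1 CPM in LPS 1, 2 and 3, against 123, 105 and 94.1 CPM in Vehicle 1, 2 and 3, and -1.09 ± 0.15. Both were separated between the groups. Tyms, the thymidylate synthase, had 42.7, 39.8 and 31.0 CPM in LPS 1, 2 and 3, against 54.4, 42.0 and 55.7 CPM in Vehicle 1, 2 and 3, and was not called (log2 fold change -0.42 ± 0.16, edgeR adjusted p = 0.0910). It passed with total counts only (edgeR adjusted p = 0.0416), and Vehicle 2 lay below LPS 1.

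Other genes of the same pathways, listed by known function but with earlier results of these data known, were set beside the members. Of 39 tested other replication factors 26 fell (66.7%) and 2 rose, against 10.9% and 12.7% of all tested genes. The list's median was -0.60 on the log2 scale. Dscc1, which loads the clamp for sister chromatid cohesion, had 5.41 CPM with LPS and 15.8 CPM with Vehicle (-1.55 ± 0.16), Asf1a, a histone chaperone, had -1.33 ± 0.17, and Wdhd1, which ties polymerase alpha to the helicase, had -1.30 ± 0.10. The pair that rose were Pold4, given above, and Recql4 (0.49 ± 0.11), a helicase of origin firing, whose call was lost without LPS 2, Vehicle 2 or Vehicle 3 (edgeR adjusted p up to 0.0676). Asf1a shares 48% of its exonic bases with Mcm9 on the other strand.

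Of 32 tested genes of nucleotide metabolism outside the members, 13 fell (40.6%) and 2 rose, against 10.9% and 12.7% of all tested genes. The list's median was -0.26. The number that fell was 8 without LPS 1, 5 without Vehicle 1 and 6 without Vehicle 2 or Vehicle 3, and the number that rose was 0 without LPS 2 or Vehicle 1, 1 without Vehicle 2 or Vehicle 3 and 5 without LPS 3. Dck, the deoxycytidine kinase, had 22.7 CPM with LPS and 54.6 CPM with Vehicle (-1.27 ± 0.12), and Dtymk, which phosphorylates dTMP, had -0.81 ± 0.19, a call lost without Vehicle 1 or Vehicle 2 (edgeR adjusted p up to 0.0677). Dguok, the mitochondrial deoxyguanosine kinase, rose, with 13.4 CPM with LPS and 6.51 CPM with Vehicle (1.05 ± 0.25, edgeR adjusted p = 0.0178), and its call was lost without LPS 2, Vehicle 1 or Vehicle 3 (edgeR adjusted p up to 0.0675). Aprt, an adenine salvage enzyme, was the other that rose (0.36 ± 0.11, edgeR adjusted p = 0.0489), and its call was kept under only 5 of 16 alternatives. Rrm2b, the form of the small reductase subunit that does not depend on S phase, was not called (0.21 ± 0.14, edgeR adjusted p = 0.316).

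Genes of mitosis were lower as well. Of 25 tested 22 fell (88%) and 0 rose, against 10.9% and 12.7% of all tested genes, and the list's median was -1.06. In all 25 every LPS library was below every Vehicle library, which held for 20.0% of all tested genes. Kif11, a spindle motor, had -1.36 ± 0.21, Nuf2, of the kinetochore, had -1.35 ± 0.12, Ccna2, the cyclin of S phase and early mitosis, had -1.26 ± 0.10, and Anln, of the cleavage furrow, had -1.22 ± 0.09. In LPS libraries 1, 2 and 3 the list median was -1.13, -1.12 and -0.82 relative to the mean of the Vehicle libraries, so LPS 3 stood closer to Vehicle for mitosis genes, whereas the median of the replication members was -0.75 in all 3.

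Regulators of the step into S phase went both ways. Of 24 tested 13 fell (54.2%) and 3 rose, against 10.9% and 12.7% of all tested genes. The list's median was -0.49. Fbxo5, an inhibitor of the anaphase-promoting complex, fell with -1.752 ± 0.15, the inhibitor gene Cdkn2c with -1.57 ± 0.18 and the repressor E2f8 with -1.35 ± 0.15. Myc rose, with 6.53 CPM with LPS and 1.47 CPM with Vehicle (2.13 ± 0.28). Cdkn1a, the inhibitor p21 that binds Pcna and cyclin-dependent kinases, and Cdk6 also rose, with 0.90 ± 0.09 and 0.57 ± 0.09.

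**Figure D4:**
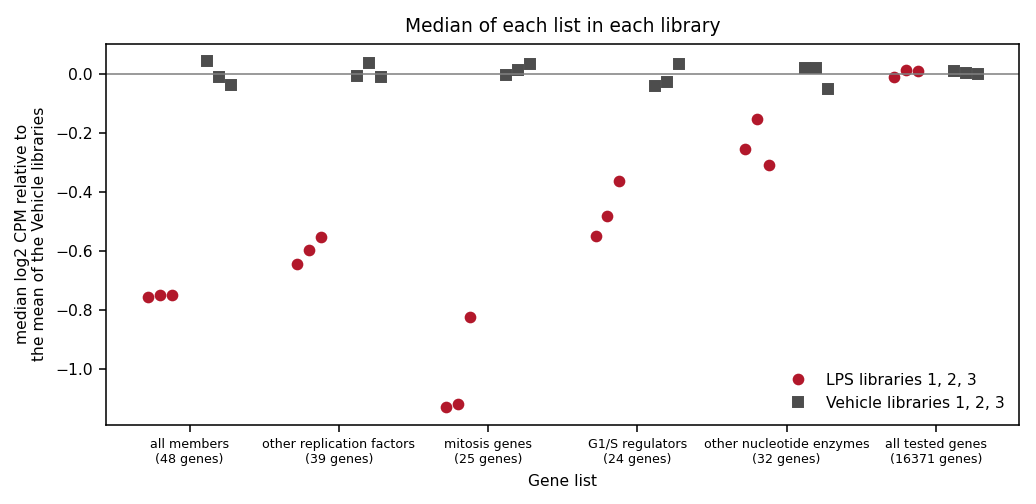
Median log2 CPM (prior count 2) of each gene list in each library, relative to the mean of the Vehicle libraries; circles are LPS libraries and squares Vehicle libraries. The replication members sit at -0.75 in all 3 LPS libraries, mitosis genes at -1.13 to -0.82, and all tested genes near 0.

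Because the members fell together and E2F sites are known from several of their promoters, the promoter windows of RefSeq (GRCm38.p6, 250 bases before to 50 after each annotated start) were read for E2F-type letters, TTTCCCGC, TTTGGCGC, TTTCGCGC or TTTGCCGC on either strand. The table had 47 windows for 40 of the 48 members. At least 1 match was found for 14 of the 40 (35%), against 2.60% of 27025 genes with a window and 4.48% of tested genes. The share was similar in the other replication factors (32.4%) and the regulators of the step into S phase (36.8%). It was 8.81% of tested genes that fell and 4.76% of mitosis genes, which fell as well. Matches were found for 11 of the 32 members that fell and for 3 of the 8 that were not called. By role they were found for 5 of 7 helicase genes, 4 of 7 polymerase genes, 3 of 5 licensing genes, 1 of 5 clamp and clamp loader genes and 1 of 6 single-strand and Okazaki genes. None was found for the 3 origin firing, 2 chromatin assembly and 5 deoxynucleotide genes. A match describes the letters of a window and is not a bound site. The lack of a match to these exact letters in this window does not show the lack of a site.

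The windows of 3 genes that fell, Mcm6, Cdc6 and Pola1, and of 2 that were not called, Cdt1 and Orc1, are shown because all 5 hold such letters whatever their change. Capitals mark the matches, which overlap each other by 4 bases in the first block of Mcm6.
Mcm6, chr1:128359656-128359955, minus strand: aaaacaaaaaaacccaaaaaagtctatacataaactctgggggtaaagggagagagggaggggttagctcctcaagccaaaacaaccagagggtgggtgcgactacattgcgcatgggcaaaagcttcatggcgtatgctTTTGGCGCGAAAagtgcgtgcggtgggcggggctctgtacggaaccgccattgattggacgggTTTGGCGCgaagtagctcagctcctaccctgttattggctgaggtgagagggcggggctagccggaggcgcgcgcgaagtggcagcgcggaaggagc
Cdc6, chr11:98907901-98908200, plus strand: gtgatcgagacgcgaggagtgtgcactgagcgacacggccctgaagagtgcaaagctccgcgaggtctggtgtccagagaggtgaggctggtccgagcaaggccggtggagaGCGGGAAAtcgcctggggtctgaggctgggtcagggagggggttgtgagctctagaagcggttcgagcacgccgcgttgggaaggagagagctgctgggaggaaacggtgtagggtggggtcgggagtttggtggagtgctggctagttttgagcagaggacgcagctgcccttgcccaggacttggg
Pola1, chrX:93632106-93632405, minus strand: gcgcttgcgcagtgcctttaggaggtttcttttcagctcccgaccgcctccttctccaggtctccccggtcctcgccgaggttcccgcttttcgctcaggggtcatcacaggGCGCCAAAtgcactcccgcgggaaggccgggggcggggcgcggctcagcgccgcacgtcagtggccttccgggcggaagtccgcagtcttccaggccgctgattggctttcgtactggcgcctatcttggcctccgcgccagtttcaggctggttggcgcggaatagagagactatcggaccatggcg
Cdt1, chr8:122567765-122568064, plus strand: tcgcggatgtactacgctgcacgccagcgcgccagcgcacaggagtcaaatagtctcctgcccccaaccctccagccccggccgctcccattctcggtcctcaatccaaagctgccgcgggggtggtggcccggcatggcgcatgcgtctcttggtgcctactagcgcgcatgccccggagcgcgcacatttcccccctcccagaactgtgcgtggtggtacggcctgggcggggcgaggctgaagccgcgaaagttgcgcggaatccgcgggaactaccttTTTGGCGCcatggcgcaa
Orc1, chr4:108579204-108579503, plus strand: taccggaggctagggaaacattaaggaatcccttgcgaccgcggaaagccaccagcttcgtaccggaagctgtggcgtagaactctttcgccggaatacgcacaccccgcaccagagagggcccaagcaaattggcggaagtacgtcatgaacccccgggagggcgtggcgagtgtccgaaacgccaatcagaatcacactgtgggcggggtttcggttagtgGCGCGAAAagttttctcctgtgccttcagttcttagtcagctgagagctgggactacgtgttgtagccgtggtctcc
In these windows Mcm6 has 3 matches and the other 4 genes have 1 each. Mcm6 fell with -0.91 ± 0.08, Cdc6 with -0.92 ± 0.13 and Pola1 with -1.30 ± 0.24, while Cdt1 and Orc1 had -0.17 ± 0.10 and -0.03 ± 0.13.

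**Figure D5:**
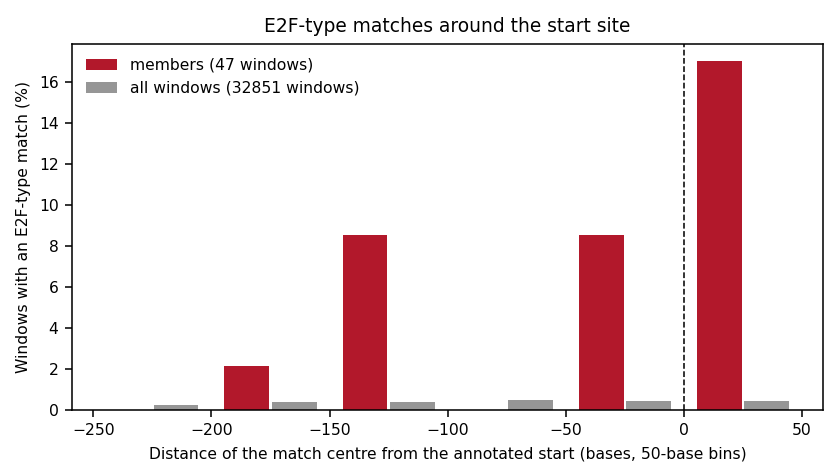
Share of promoter windows with an E2F-type match whose centre lies in each 50-base bin, against the distance from the annotated start, for the 47 windows of members (red) and all 32851 windows of the table (grey). Members have matches in 17.0% of windows within 50 bases after the start, against 0.417% of all windows.

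The CHR element, TTTGAA or TTCGAA on either strand, which mitotic genes use, was found for 9 of the 40 members (22.5%). It was found for 21.7% of all genes, 17% of tested genes, 22.8% of tested genes that fell and 16 of 21 mitosis genes (76.2%). The CCAAT box, CCAAT on either strand, was found for 23 of the 40 members (57.5%) and for all 7 helicase genes with a window. Its share was 41.1% of all genes, 43.1% of tested genes and 45.4% of tested genes that fell. These shares are over windows of the same length and were not tested.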

How the data were processed

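The authors deposited estimated counts (expected counts) per gene for 6 libraries, prepared per the labels with NEBNext Ultra reagents from poly(A)-enriched RNA and sequenced on a NovaSeq instrument. The tools named, without roles, in the submitters' processing notes are StringTie 1.3.1, HISAT2, DESeq2 and Bowtie2 2.2.8. For the strand setting, genome build and annotation the entry is: not given in the sources used here. Hence 16 members whose exons overlap another gene on either strand in GENCODE M21 are uncertain in that respect. All values were whole, so rounding changed nothing, and 0 columns were left unmapped. Gene symbols were found for 55141 of 55401 identifiers in GENCODE M21, and lengths are those of the longest annotated transcript.

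Genes were filtered with filterByExpr (minimum count 10, minimum total count 15), scaled by TMM and tested with edgeR 4.0.16 (quasi-likelihood F-test, robust, two-sided, R 4.3.3), LPS against Vehicle, with Benjamini-Hochberg adjustment over 16371 genes and a threshold of 0.05. SE is the log2 fold change over the square root of F. CPM are TMM-scaled. Alternatives were other scalings and filters, DESeq2 1.42.0, limma 3.58.1 (voom), edgeR's test as before version 4, a replicate block, values divided by their spacing, and leaving out each library. The fit was tested on simulated data with a dispersion of 0.0389, where it called 17% of 1.5-fold, 72% of 2-fold and 100% of 4-fold changes. Of its 110 calls there 7 were false. A gene that was not called is therefore not shown to be unchanged. Ratios were tested by exact permutation with scipy 1.17.1, and figures were drawn with matplotlib 3.10.9.

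The members, lists and tests were chosen with earlier results of these data known. In each role group values are given per library for up to 4 called members with the largest changes and for Pcna, Mcm2, Gmnn, Cdt1, Rrm1 and Rrm2; Orc1, Pola2, Pold2, Rfc4, Rpa1 and Tyms were added after their values were seen. Of each other list up to 4 called genes are named, with at least 1 in each direction. Pole3, Pole4, Orc3, Orc4, Orc5, Rrm2b, Mki67, Cenpf, Bub1, Cdk1 and the further genes that rose were added after their values were seen. The symbols Chtf8 and Ctps1 of the lists had no unique row. The values of 1 listed gene are not reported here.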

Additional observations from a re-analysis of the deposited data

How the results depend on the processing

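Across 16 alternatives no member was called higher, and between 34 and 41 of the 48 were called lower, fewest without LPS 1. In all of them and the main analysis together, 34 members were called lower throughout and 45 had a log2 fold change below 0; the exceptions, Orc1, Pold2 and Rpa1, were not called in any. Of 768 values of a member under an alternative, 730 kept their direction and their side of the threshold and 29 lost it, all for Cdc45, Prim2, Rfc3, Rpa2, Rpa3 or Chaf1b; 3 gained a call (Tyms, Rfc4 and Pold3). The sign turned for Pold2 with total counts only (-0.0354) and without LPS 2 or LPS 3 (range without 1 library -0.041 to 0.18), for Orc1 without LPS 1 or Vehicle 1 (range -0.10 to 0.039), and for Rpa1 without Vehicle 1 (range -0.36 to 0.040).

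With total counts only, which moves the median of all tested genes to -0.10, the median log2 fold change was -0.83 for all members, -0.63 for licensing, -0.89 for the helicase, -0.81 for origin firing, -0.63 for polymerases, -0.80 for the clamp and its loader, -0.84 for single-strand binding and Okazaki genes, -0.62 for chromatin assembly and -1.19 for deoxynucleotide enzymes; 42.2% of all called genes were then higher, against 53.9%. With upper quartile scaling the median of all members was -0.77. The cause of these shifts was not tested. Without 1 library the medians ran from -0.77 to -0.73 for all members, -0.61 to -0.49 for licensing, -0.89 to -0.74 for the helicase, -0.80 to -0.70 for origin firing (lowest without Vehicle 2), -0.59 to -0.47 for polymerases, -0.80 to -0.69 for the clamp and its loader, -0.83 to -0.71 for single-strand binding and Okazaki genes, -0.59 to -0.49 for chromatin assembly and -1.17 to -1.01 for deoxynucleotide enzymes. Over all tested genes, leaving out 1 library gave 1291 to 2450 higher and 1053 to 2085 lower, the cause not tested; 2450 and 2085 were without LPS 3, 1291 and 1053 without Vehicle 2, and 1150 and 1153 were lower without Vehicle 1 and without LPS 2. With the replicate number as a block 40 members and 1783 genes were lower and 2033 genes higher. The correlations of same-numbered libraries' deviations were 0.0734, 0.0453 and 0.0581, each the highest for both libraries of its number. Deviations from a group mean cancel within the group, so some matching of libraries comes out positive whatever the design. These small values therefore cannot show pairing, and the labels state none. The smallest estimated count of a member in a library was 385, on a scale with steps of 3.81 to 3.93, and the part of depth in the calls was not tested.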
